A study of Mus musculus with 8 samples.

Results

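Messenger RNA of 10 genes of the urea cycle and of gluconeogenesis was examined in 8 Fah-/- mice. The genes are Cps1, Otc, Ass1, Asl, Arg1, Nags and Slc25a15 of the urea cycle and Pck1, G6pc and Fbp1 of gluconeogenesis. They were chosen by symbol, and all 10 were found among the 22504 genes of the deposited table and passed the filter on low values that left 10244 genes for testing. Without FAH, the enzyme that ends tyrosine breakdown, toxic intermediates build up in hepatocytes unless the mice receive NTBC, a drug acting upstream, given at 7.5 mg/L as the standard dose. All mice were Fah-/- on the 129S4 background, and no group of Fah wild-type mice or of mice on full NTBC was analysed here. The 3 mice of C 8w had 8 weeks of moderate chronic liver injury (MCLI) on 2.5% of the NTBC dose, and the 2 mice of C 12w had 12 weeks of it. The 3 mice of C 8w + A 4w (the SALI group) had 8 weeks of MCLI and then 4 weeks of severe acute liver injury (SALI) without NTBC. Ages were not given. The labelled tissue was liver in C 8w and the SALI group and tumor in C 12w, so time on MCLI and tissue cannot be told apart between C 8w and C 12w.

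The urea cycle turns ammonia, released when amino acids are broken down, into urea. Its first steps run in the mitochondria of hepatocytes and its later steps in their cytosol. Gluconeogenesis makes glucose from lactate, glycerol and the carbon of amino acids during fasting, and is driven by glucagon and glucocorticoids and held back by insulin. Both pathways are strongest in the hepatocytes around the portal vein, while hepatocytes around the central vein take up the remaining ammonia with glutamine synthetase.

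Values are FPKM, sequenced fragments corrected for gene length and for the fragments mapped in the sample, which allows levels to be compared between genes. Groups were compared by limma on log2(FPKM + 1), and a gene was called changed at a Benjamini-Hochberg adjusted p under 0.05 over all genes tested. One series of sample codes covers C 8w and C 12w and a different one the SALI group, so the code series and the SALI group cannot be told apart. These series also differed in Alb and Gapdh, a hepatocyte gene and a gene of general metabolism. Alb, encoding albumin, was listed at 0 throughout C 8w and C 12w and at 12946 to 16950 in the SALI group. Gapdh did not exceed 0.247 outside the SALI group, where it reached 68.2 to 99.9. None of the 10 genes was listed at 0 in any sample. Fah itself was 5.02 to 6.36 in the SALI group and 13.5 to 16.8 elsewhere, a gene total that does not show which part of the disrupted gene was transcribed. The labels' extraction text speaks of retinas, but the 6 retina markers summed to 0.174 FPKM at most, and the hepatocyte markers to at least 12180, Alb included. In these bulk samples fewer hepatocytes and less RNA per hepatocyte cannot be told apart. Each sample is 1 mouse, and p-values set group differences against the spread between these few mice, shared over all 3 groups. The spread of the C 12w pair thus also enters the comparison of the SALI group with C 8w.

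Most of the 10 genes were lower in the SALI group than in C 8w. Of the 10, 7 fell (Cps1, Otc, Asl, Arg1, Nags, G6pc and Fbp1) and 1, Ass1, rose as listed, against 14.1% of all genes tested that fell and 25.3% that rose. The median log2 fold change was -1.18 over the 10 genes and 0.12 over all genes tested. For each of the 10 the samples of both groups did not overlap, which also held for 61.4% of all genes tested (22.3% lower and 39% higher in the SALI group), so non-overlap alone does not set a gene apart here. Scaling the samples by the median ratio of their genes moved the median of all genes to 0.0050 and the rising share of called genes from 64.2% to 49.4%, and the call of 8 of the 10 genes stayed at 8. Against C 12w, 5 of the 10 fell (Cps1, Otc, Nags, G6pc and Fbp1) and Ass1 rose, with 15.4% of all genes lower and 17.4% higher. Both comparisons use the same SALI samples. Between C 12w and C 8w, Otc fell and no other gene passed, with 6.98% of all genes lower and 12.2% higher.

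**Figure D1:**
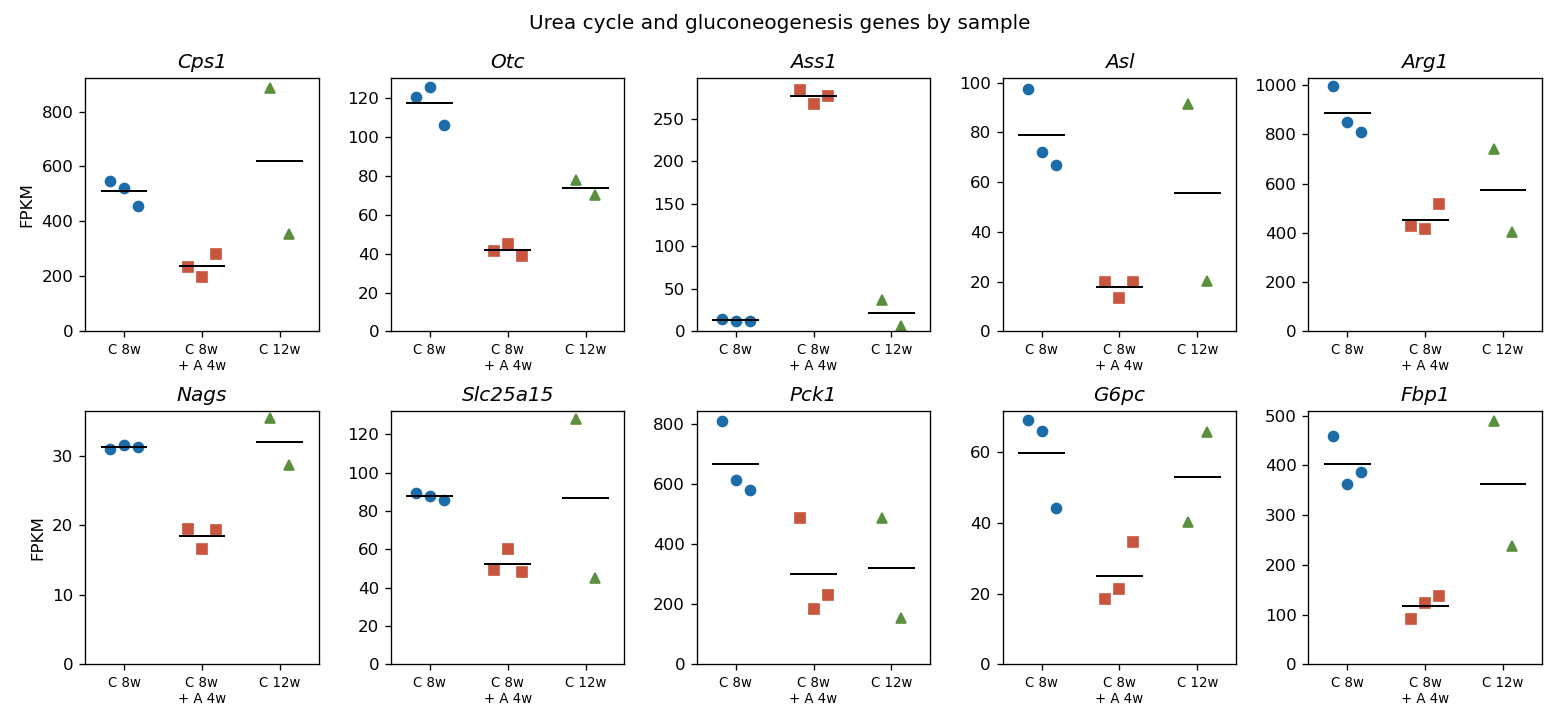
FPKM of each gene by group, on axes that start at 0, with 1 point for each sample (in the order of replicate number) and a black line at the group mean. In the SALI group, 9 genes lie below all samples of C 8w and Ass1 lies above them, and the pair of C 12w samples is wide apart for most genes.

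**Figure D2:**
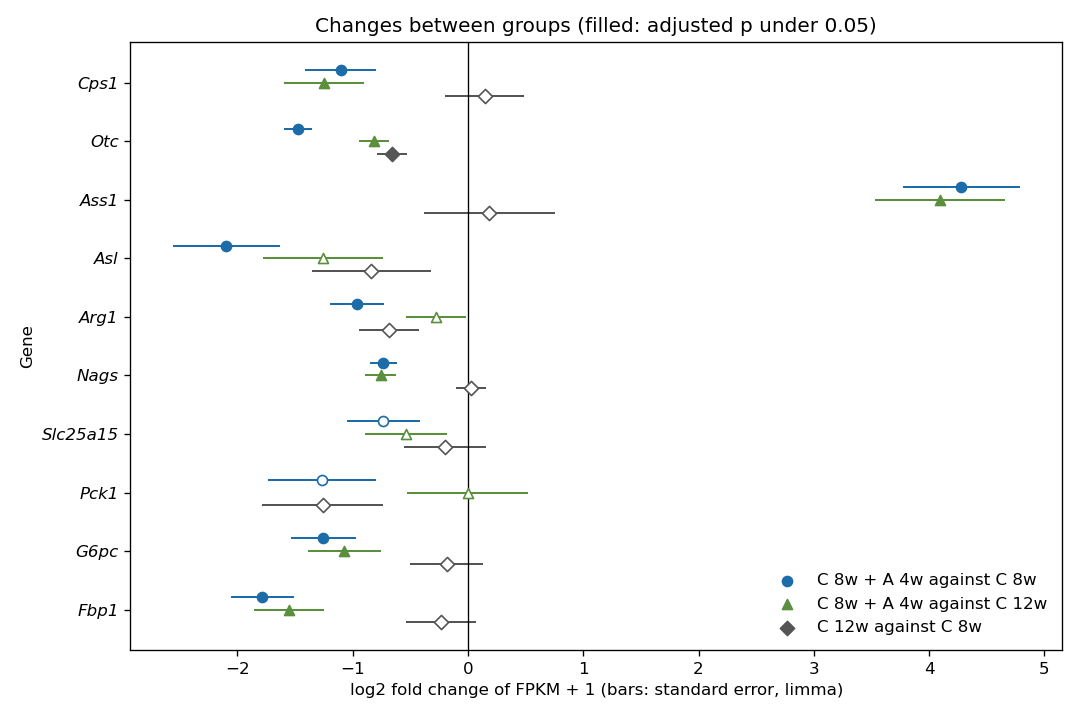
Log2 fold change of FPKM + 1 for the 10 genes in 3 comparisons, with limma's standard error as bars and filled symbols for adjusted p under 0.05. Otc is the gene with filled symbols in all 3 comparisons, and Ass1 lies far to the right of the others, at 4.28 and 4.09 in the comparisons with the SALI group.

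The mitochondrial entry of the cycle fell with SALI. Nags makes N-acetylglutamate, without which carbamoyl phosphate synthetase is inactive. Nags (ENSMUSG00000048217) was 31.0, 31.6 and 31.2 FPKM in C 8w, 19.5, 16.6 and 19.3 in the SALI group, and 35.4 and 28.6 in C 12w. Every sample of the SALI group was below every other sample, and the C 8w samples lay within 1.02-fold of each other. The log2 fold change was -0.73 ± 0.12 (SE) against C 8w (limma, adjusted p = 0.0019) and -0.76 ± 0.13 against C 12w (adjusted p = 0.0035). Both calls were kept at every other setting tried except a minimum log2 fold change of 1. In the reference annotation an antisense transcript, Gm11586, overlaps 13.5% of the 50-base windows of Nags, and the strand setting of the authors' quantification is not given in the sources used here.

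Cps1 (ENSMUSG00000025991), encoding carbamoyl phosphate synthetase, the first and rate-limiting enzyme of the cycle, was 547.8, 522.8 and 457.6 FPKM in C 8w. It was 234.6, 199.6 and 281.0 FPKM in the SALI group and 886.2 and 356.1 in C 12w. The SALI group was thus the low group, with its highest sample below the lower one of C 12w. Mean Cps1 was 2.14-fold lower than in C 8w, with a log2 fold change of -1.10 ± 0.31 (SE, limma, adjusted p = 0.0221), and 2.61-fold lower than in C 12w (log2 fold change -1.25, adjusted p = 0.0244). These calls stood close to the threshold: over the other settings the adjusted p ranged from 0.000683 to 0.0790 against C 8w, and the call was lost in 5 of 22 settings, among them without C 8w replicate 1 or 2 and without SALI replicate 96 or 97. Without C 12w replicate 2, the sample with the highest Cps1, the log2 fold change against C 12w was -0.59 (adjusted p = 0.0561).

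Otc, encoding ornithine transcarbamylase, which joins carbamoyl phosphate to ornithine, had the largest fall relative to its standard error. Otc (ENSMUSG00000031173) was 120.5, 125.9 and 106.5 FPKM in C 8w, 41.2, 44.9 and 38.9 in the SALI group, and 77.7 and 70.4 in C 12w. The 3 groups did not overlap, and C 12w lay between the other two. Against C 8w, Otc fell by 1.47 on the log2 scale (SE 0.12, limma, adjusted p = 4.54e-05) in the SALI group and by 0.66 in C 12w (adjusted p = 0.0139). Between the SALI group and C 12w the log2 fold change was -0.81 (adjusted p = 0.0025). The adjusted p of both comparisons with the SALI group passed in all 22 settings, though the fall against C 12w is under a minimum log2 fold change of 1, while the call of C 12w against C 8w was lost without C 8w replicate 1 (adjusted p = 0.0579) or replicate 2 (adjusted p = 0.0534).

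Slc25a15, the carrier that exchanges ornithine and citrulline across the inner mitochondrial membrane, was lower in every sample of the SALI group than in C 8w but did not pass the test. Slc25a15 (ENSMUSG00000031482) was 89.3, 87.8 and 85.9 FPKM in C 8w, 49.3, 60.3 and 48.3 in the SALI group, and 127.9 and 45.3 in C 12w. The C 12w samples lay on either side of both other groups. The log2 fold change against C 8w was -0.73 ± 0.32 (SE, limma, adjusted p = 0.0973) with the spread shared over all 3 groups. It was past the threshold without C 12w replicate 2 or 3 and with C 8w and the SALI group alone (adjusted p = 0.0013).

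Asl and Arg1 catalyse the last steps of the cycle in the cytosol. Asl (ENSMUSG00000025533), encoding argininosuccinate lyase, which releases arginine and fumarate, was 97.5, 72.1 and 67.0 FPKM in C 8w, 19.8, 13.4 and 19.9 in the SALI group, and 91.3 and 20.1 in C 12w. One C 12w sample was thus at the level of C 8w and the other at the upper edge of the SALI group. Mean Asl was 4.45-fold lower in the SALI group than in C 8w, the largest fall of the 10 genes, with a log2 fold change of -2.10 ± 0.46 (SE, limma, adjusted p = 0.0083). Against C 12w the log2 fold change of -1.26 did not pass (adjusted p = 0.0956). It was -2.32 (adjusted p = 0.000588) without C 12w replicate 3 and -0.19 (adjusted p = 0.594) without C 12w replicate 2.

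Arg1 encodes arginase, which splits arginine into urea and ornithine. Arg1 (ENSMUSG00000019987) was 998.3, 850.0 and 808.2 FPKM in C 8w, 429.4, 416.4 and 516.4 in the SALI group, and 741.1 and 405.7 in C 12w. It was the most abundant of the 10 genes in C 8w and in the SALI group, and Cps1 was in C 12w. Both the SALI group and C 12w lay below C 8w and overlapped with each other. The fall with SALI was 1.95-fold in the means, a log2 fold change of -0.96 ± 0.23 (SE, limma, adjusted p = 0.0123), and its call was lost without C 8w replicate 1 (adjusted p = 0.0562). In C 12w the log2 fold change against C 8w was -0.68 (adjusted p = 0.0943), between -1.12 and -0.25 with 1 sample left out.

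Ass1, encoding argininosuccinate synthetase, which joins citrulline and aspartate, is the gene of the cycle whose listed value moved the other way. Ass1 (ENSMUSG00000076441) was 15.05, 12.2 and 12.7 FPKM in C 8w, 283.2, 267.5 and 276.9 in the SALI group, and 37.4 and 5.86 in C 12w. All 3 samples of the SALI group were far above all others, by a log2 fold change of 4.28 ± 0.51 (SE, limma, adjusted p = 0.00038) against C 8w and of 4.09 ± 0.57 (adjusted p = 0.0011) against C 12w. The latter was 5.33 without C 12w replicate 2 and 2.85 without C 12w replicate 3, and the call held in both. Ass1 has a near-identical processed copy, Gm5424 (ENSMUSG00000046687). Of the 50-base windows of Ass1 transcripts, 38.6% also occur in Gm5424, and these are 76.5% of the windows of the copy. Apart from Ass1 and Nags, none of the 10 genes shared any window with another gene.

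How alike they are is shown by the stretch of 90 bases with the most differences in the Ass1 coding sequence, printed with the same stretch of the copy and with the bases that differ in capitals. The stretch covers bases 340 to 429 of the Ass1 coding sequence, counted from the start codon (the gene lies at chr2:31470207-31520672, + strand), and bases 340 to 429 of Gm5424, a processed pseudogene at chr10:62071123-62072362 on the + strand. Both come from GENCODE M21 on GRCm38.
Ass1: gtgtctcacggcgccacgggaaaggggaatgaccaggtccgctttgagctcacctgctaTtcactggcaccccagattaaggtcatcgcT
Gm5424: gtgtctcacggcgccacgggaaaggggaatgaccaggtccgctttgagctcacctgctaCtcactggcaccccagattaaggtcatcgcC
Over all 1236 coding bases 6 differ, an identity of 99.5%, and the longest stretch without a difference is 398 bases. A read of 50 bases that lies in such a stretch matches both genes equally well.

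The copy carried the opposite values. Gm5424 was listed at 1145, 969 and 996 FPKM in C 8w, at 59.9, 55.3 and 58.5 in the SALI group, and at 2068 and 352 in C 12w. Its log2 fold change was -4.14 ± 0.52 (SE, limma, adjusted p = 0.000551) against C 8w and -3.86 ± 0.59 (adjusted p = 0.0018) against C 12w. Ass1 made up 1.24% to 1.30% of the summed FPKM of the pair in C 8w, 1.64% to 1.77% in C 12w, and 82.6% to 82.9% in the SALI group. The share was nearly constant within each code series, including the C 12w samples that stood far apart in the values themselves.

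Added into 1 row, the pair was lower in the SALI group, in the direction of the other 9 genes. The sum was 1160, 981 and 1008 FPKM in C 8w, 343, 323 and 335 in the SALI group, and 2105 and 358 in C 12w. Its log2 fold change against C 8w was -1.65 ± 0.53 (SE, limma, adjusted p = 0.0368). With each FPKM weighted by the length of the longest transcript, 1696 bases for Ass1 and 1240 for Gm5424, it was -1.27 ± 0.53 (adjusted p = 0.0853). Against C 12w neither sum passed (log2 fold changes -1.38 and -1.004, adjusted p = 0.106 and 0.224). The row of Ass1 alone and the pair as 1 row thus gave opposite directions, and for the split between them the treatment and the code series cannot be told apart.

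**Figure D3:**
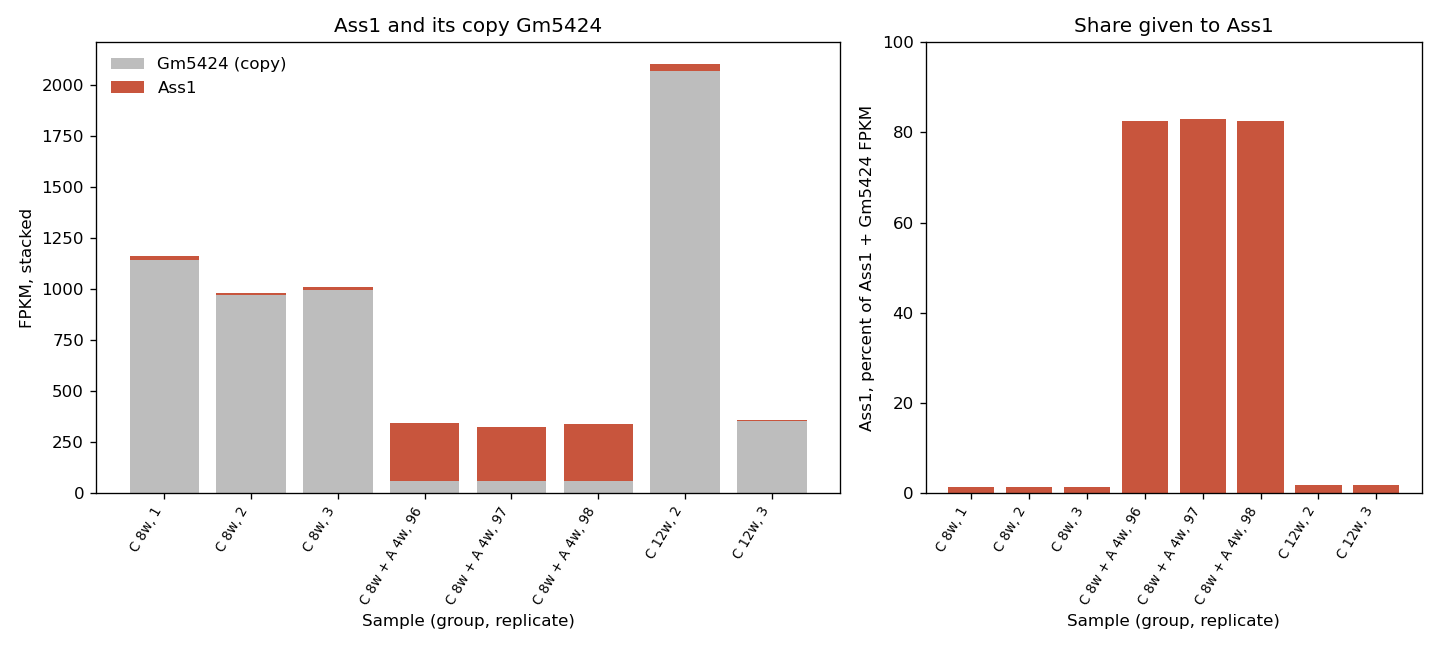
Left, FPKM of Ass1 stacked on that of its copy Gm5424 in each sample; right, Ass1 as a percentage of the sum. The sum is between 323 and 343 in the SALI group and between 981 and 1160 in C 8w, while the share listed under Ass1 is at least 82.6% in the former and at most 1.77% in all other samples.

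The sum of Cps1, Otc, Asl and Arg1 was between 1439 and 1764 FPKM in C 8w, between 674 and 856 in the SALI group, and 1796 and 852 in C 12w. Within this sum the share of Cps1 was 32.0% ± 1.1 (SD, n = 3) in C 8w and 31.6% ± 1.7 (n = 3) in the SALI group, a difference within the spread between samples, and 49.3% and 41.8% in C 12w. With Ass1 added as listed the share was 31.8% ± 1.1 in C 8w and 23.1% ± 1.8 in the SALI group, and with Ass1 and Gm5424 both added it was 19.3% ± 1.0 and 21.9% ± 1.8, so its direction depends on how Ass1 is counted. In the order of mean levels, Ass1 as listed stood last of the 10 genes with MCLI alone (C 8w, C 12w) but took the third place in the SALI group. The sum of Ass1 and Gm5424 had means of 1049.7 FPKM in C 8w and 1231 in C 12w, above all the other members, and of 333.7 in the SALI group, below Arg1 only. The order of the other genes changed little, with Arg1, Pck1, Cps1 and Fbp1 ahead in every group.

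Of gluconeogenesis, Fbp1 and G6pc fell and Pck1 did not pass. Fbp1 encodes the fructose-1,6-bisphosphatase of liver. Fbp1 (ENSMUSG00000069805) was 458.0, 363.2 and 386.3 FPKM in C 8w, 91.9, 122.9 and 137.0 in the SALI group, and 488.6 and 237.0 in C 12w. Every sample of the SALI group was below every other sample. Mean Fbp1 was 3.43-fold lower than in C 8w, with a log2 fold change of -1.78 ± 0.27 (SE, limma, adjusted p = 0.0014), and 3.09-fold lower than in C 12w (log2 fold change -1.55, adjusted p = 0.0058). Both calls were kept in all 22 settings, with the latter between -2.07 and -1.03 when 1 sample was left out.

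G6pc encodes the catalytic subunit of glucose-6-phosphatase, which releases free glucose as the last step. G6pc (ENSMUSG00000078650) was 69.1, 66.1 and 44.3 FPKM in C 8w, 18.6, 21.5 and 34.6 in the SALI group, and 40.3 and 65.9 in C 12w. The SALI group was again the low group without overlap, although its highest sample came near the lower one of C 12w. The log2 fold change was -1.25 ± 0.28 (SE, limma, adjusted p = 0.0087) against C 8w and -1.07 ± 0.31 (adjusted p = 0.0313) against C 12w. The latter was lost in 5 of 22 settings, among them without C 12w replicate 3 (adjusted p = 0.154) and without SALI replicate 96 or 97.

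Pck1 encodes the cytosolic phosphoenolpyruvate carboxykinase, which commits oxaloacetate to glucose. Pck1 (ENSMUSG00000027513) was 809.7, 613.3 and 580.3 FPKM in C 8w, 488.5, 184.2 and 230.4 in the SALI group, and 489.0 and 154.8 in C 12w. It was the most variable of the 10 genes within the SALI group, with a 2.65-fold range, and replicate 96 stood at the level of the higher C 12w sample. All samples of both other groups were below those of C 8w. The log2 fold change against C 8w was -1.26 ± 0.47 (SE, limma, adjusted p = 0.0608) in the SALI group and -1.26 ± 0.52 (adjusted p = 0.117) in C 12w, the latter between -2.09 and -0.43 with 1 sample left out. With 1 sample left out the former ranged from -1.68 to -0.98, and without SALI replicate 96 it passed (-1.68, adjusted p = 0.0273). It also passed, among other settings, with C 8w and the SALI group alone (adjusted p = 0.0142) and with total scaling (adjusted p = 0.0365). Between the SALI group and C 12w the log2 fold change was -0.0030 (adjusted p = 0.997), and 0.82 without C 12w replicate 2.

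The promoters of Pck1 and G6pc are shown because these hormone-driven genes held the matches to the motifs searched that lie closest to their start sites. The 250 bases before the start site were taken from RefSeq on GRCm38.p6, both on the + strand, at chr2:173152823-173153072 for Pck1 and chr11:101367466-101367715 for G6pc. Capitals mark the matches.
Pck1: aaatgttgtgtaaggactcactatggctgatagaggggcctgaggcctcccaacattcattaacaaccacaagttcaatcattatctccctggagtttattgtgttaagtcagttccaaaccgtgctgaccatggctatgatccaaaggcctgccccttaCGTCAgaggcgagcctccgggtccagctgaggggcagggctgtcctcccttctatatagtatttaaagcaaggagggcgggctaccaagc
G6pc: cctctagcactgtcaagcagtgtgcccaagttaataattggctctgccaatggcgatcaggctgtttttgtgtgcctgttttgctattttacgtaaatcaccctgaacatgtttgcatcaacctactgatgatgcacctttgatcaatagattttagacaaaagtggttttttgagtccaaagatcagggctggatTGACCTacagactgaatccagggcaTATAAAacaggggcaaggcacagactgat
In Pck1 the capitals mark CGTCA, the core of the element that CREB binds after a cAMP signal, 90 to 86 bases before the start. In G6pc they mark AGGTCA, a core motif of nuclear receptors, read on the opposite strand at 54 to 49 bases, and TATAAA, the box bound by TBP, at 29 to 24 bases. Over 32851 promoters of the same length, 17.8% held CGTCA on either strand, 14% held AGGTCA and 12.4% held TATAAA. RefSeq promoters were matched for 7 of the 10 genes, and Nags was the only other one with a match, to AGGTCA at 178 to 173 bases. Other motifs searched were GTAAACA, which FOXO factors bind (3.17% of all promoters), TTGCNNAA of C/EBP factors (9.56%) and CAAAGTCCA of HNF4 (0.384%), and the 7 genes had no match to them in these windows. The matches printed do not overlap, and a match is only a description of the letters.

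Most of the 10 genes differed widely between the C 12w samples. Of the 10 genes, 9 were higher in replicate 2 than in replicate 3, where 39.2% of all genes tested were higher in replicate 2. The ratio was 6.38 for Ass1, 4.55 for Asl, 3.16 for Pck1, 2.82 for Slc25a15, 2.49 for Cps1 and 2.06 for Fbp1. Otc, at 1.10, and Nags, at 1.24, were close in both, and G6pc was 1.63-fold higher in replicate 3. On the scale of FPKM + 1, 6 of the 10 genes were at least 2 times as high in replicate 2, against 3.17% of all genes tested. Cholangiocyte markers moved in the opposite direction: the 6 summed to 28.2 FPKM in replicate 2 and 338.6 in replicate 3, mostly Spp1 (22.2 and 310.7), against 9.51 to 15.2 in C 8w. The other 5 were also higher in replicate 3, among them Sox9 (3.61 and 19.9), Epcam (1.36 and 5.82) and Krt7 (0.165 and 1.17), with Krt19, a keratin of bile ducts, at 0.798 and 1.06. The summed hepatocyte markers were 22971 and 12202. The part of these cells in the difference was not tested.

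**Figure D4:**
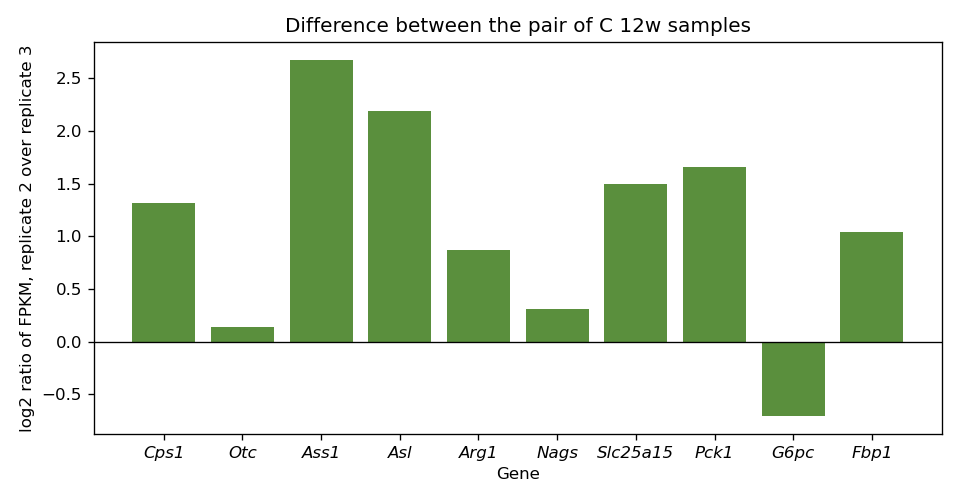
Log2 ratio of FPKM in C 12w replicate 2 to that in replicate 3 for the 10 genes. All bars but that of G6pc are above 0, and the highest is that of Ass1, a ratio of 6.38.

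The comparison of C 12w with C 8w therefore turned on the sample used. Without C 12w replicate 2, 7 of the 10 genes were called lower: Otc, Ass1, Asl, Arg1, Slc25a15, Pck1 and Fbp1. In that fit 11.1% of all genes tested were lower and 25% higher. Without C 12w replicate 3, 3 were called, of which Cps1 (log2 fold change 0.80, limma, adjusted p = 0.0423) and Ass1 (1.43, adjusted p = 0.0019) were higher and Otc was lower. Of all genes, 8.58% were higher and 6.32% lower in that fit. Each of these fits rests on a lone C 12w sample, assumed to vary like the samples of the other groups. Otc was the only gene of the 10 with one direction and a call in both.

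Other genes of the same pathways were taken from lists. Of 20 genes next to the urea cycle (ammonia and amino acid handling), 17 passed the filter, and in the SALI group against C 8w 5 fell and 1 rose (of all genes tested 14.1% fell and 25.3% rose), with a median log2 fold change of -0.40. Without C 12w replicate 2 or 3, whose spread enters the fit, 10 fell and 1 rose, with 18.5% of all genes falling. The falls were of Gls2, the liver glutaminase that releases ammonia for the cycle (log2 fold change -2.61, limma, adjusted p = 0.000164), Sds, serine dehydratase (-2.28, adjusted p = 0.0121), Rhbg, an ammonia transporter (-1.60, adjusted p = 0.0065), Aass of lysine breakdown (-1.52, adjusted p = 0.000228) and Slc38a3, a glutamine transporter (-1.29, adjusted p = 0.0035). Gls2 was between 106.7 and 132.4 FPKM in C 8w, between 14.5 and 24.5 in the SALI group, and 136.4 and 69.4 in C 12w. Sds and Rhbg share 21.2% and 60.4% of their windows with other genes. The gene that rose was Got2, mitochondrial aspartate aminotransferase (1.18, adjusted p = 0.000559), which shares 25.6% of its windows, among others with its pseudogene Got2-ps1.

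In the SALI group against C 12w, 3 of the 17 rose and 5 fell, where 17.4% of all genes tested rose and 15.4% fell. These counts turned on the sample left out, with 2 rises and 3 falls without SALI replicate 98. In C 12w against C 8w 2 fell and none rose, where 6.98% of all genes fell and 12.2% rose. These counts changed when either C 12w sample was left out, but each such fit rests on a lone C 12w sample. In the fit to all samples the pair of falls were genes of the pericentral side: Glul, glutamine synthetase, and Rhbg. Glul was 214.1, 187.9 and 233.6 FPKM in C 8w, 173.1, 227.5 and 158.1 in the SALI group, and 52.2 and 22.7 in C 12w. Its log2 fold change in C 12w against C 8w was -2.58 (limma, adjusted p = 0.0025), while the SALI group and C 8w overlapped. The ratio of Cps1 to Glul, the portal and the central route of ammonia removal, was 1.96 to 2.78 in C 8w, 0.878 to 1.78 in the SALI group, and 17.0 and 15.7 in C 12w. The C 12w samples, far apart in Cps1, were close in this ratio. Glul shares 12.6% of its windows with other genes.

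All 21 genes next to gluconeogenesis passed the filter. In the SALI group against C 8w 9 fell and 2 rose, where 14.1% of all genes fell and 25.3% rose, with a median log2 fold change of -0.58. Among the 9 called falls, the largest was of Ppp1r3b, which targets a phosphatase to glycogen (log2 fold change -1.94, limma, adjusted p = 0.000518). Pygl, the liver glycogen phosphorylase (-1.59, adjusted p = 0.0085), and Slc2a2, the hepatocyte glucose transporter (-1.15, adjusted p = 0.0164), came next. Pcx, pyruvate carboxylase, which feeds Pck1 with oxaloacetate, was 134.8, 127.3 and 127.8 FPKM in C 8w and 71.5, 79.3 and 90.4 in the SALI group (-0.69, adjusted p = 0.0086). Slc37a4, the transporter that brings glucose-6-phosphate to G6pc, was lower in both the SALI group (-0.70, adjusted p = 0.0194) and C 12w (-0.77, adjusted p = 0.0377). The rises were of Fbp2, the muscle form of Fbp1, at 2.23 FPKM or below in the group means, and of Mpc1. In the SALI group against C 12w 3 of the 21 rose and 4 fell, where 17.4% of all genes rose and 15.4% fell.

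Mpc1, a subunit of the mitochondrial pyruvate carrier, was 1.05, 1.19 and 1.35 FPKM in C 8w, 97.03, 79.8 and 103.5 in the SALI group, and 0.804 and 1.03 in C 12w. It shares 15.26% of its windows with another gene and 11.03% with the pseudogene Mpc1-ps. Values of these genes were not available, so no sum was formed as for Ass1 and Gm5424. Mpc2, the partner subunit of Mpc1, with 0.122% shared windows, fell (-0.58, adjusted p = 0.0101). Among all genes tested, a log2 change of more than 1 in either direction in the SALI group against C 8w was found in 8.88% of the genes with at most 2% shared windows, in 25.2% of those with 20% to 50%, and in 34% of those above 50%. Of the 10 genes, only Ass1 and Nags are above 2%. Alb, with 0% shared windows, did not pass the filter and is not in these percentages. It was listed at 0 throughout C 8w and C 12w but not in the SALI group. A low percentage thus does not clear a gene of the difference between the code series.

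Of 20 regulators of these pathways, all of which passed the filter, 4 fell and 1 rose in the SALI group against C 8w. With 14.1% of all genes falling and 25.3% rising, the falls were near the share of all genes, and the values that follow describe single genes. The count was 2 falls and 1 rise without C 8w replicate 2, and 7 falls and 2 rises without C 12w replicate 2 or 3. Gcgr, the glucagon receptor, was 55.3, 47.1 and 51.0 FPKM in C 8w, 37.05, 20.6 and 28.0 in the SALI group, and 52.8 and 61.2 in C 12w (log2 fold change -0.85 against C 8w, limma, adjusted p = 0.0097). Klf15, which acts on amino acid breakdown and gluconeogenesis in fasting (-0.79, adjusted p = 0.0041), Cebpa (-0.47, adjusted p = 0.0127) and Foxo1 (-0.42, adjusted p = 0.0210) were the other falls. The rise was of Sik1, a kinase that restrains the cAMP response (1.03, adjusted p = 0.0012). Klf15, Foxo1 and Sik1 were also called in the same directions in C 12w against C 8w, where 6 regulators fell and 1 rose (6.98% and 12.2% of all genes). The falls there numbered 2 without C 8w replicate 2 or 3, and 3 without C 8w replicate 1, SALI replicate 98 or C 12w replicate 2. Pdk4, which blocks pyruvate oxidation, and Cebpb were lower in C 12w than in both other groups.

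The 10 genes belong to the portal side of the lobule, and genes of both sides of the lobule fell in the SALI group against C 8w. In this comparison 14.1% of all genes fell and 25.3% rose, with a median of 0.12. Of 13 further periportal genes 6 fell and 1 rose in the SALI group against C 8w, with a median log2 fold change of -0.71. Among them Pigr, Uroc1 and Ftcd, the latter pair acting in histidine breakdown, fell by 3.73, 2.23 and 1.97 on the log2 scale (limma, adjusted p = 0.000113, 3.32e-05 and 1.57e-05). Of 11 pericentral genes 9 passed the filter, of which 4 fell and none rose, with a median of -0.86. In the SALI group against C 12w, 1 of the 9 pericentral genes fell and 1 rose, with a median of 0.46. Of the 13 periportal genes 5 fell and none rose there, with a median of -0.68. Of all genes 15.4% fell and 17.4% rose against C 12w. Cyp2e1, a cytochrome P450 of the central zone, was 1672, 1559 and 1916 FPKM in C 8w, 521.2, 900.1 and 795.3 in the SALI group, and 288.7 and 216.9 in C 12w. In C 12w against C 8w the pericentral median was -0.92 with 3 falls, where 6.98% of all genes fell. The falls numbered 2 without any 1 of the C 8w samples. The periportal median was 0.072 with 2 rises (all genes 0.12, with 12.2% rising). Leaving out either C 12w sample changed the counts of both lists, but each such fit rests on a lone C 12w sample.

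**Figure D5:**
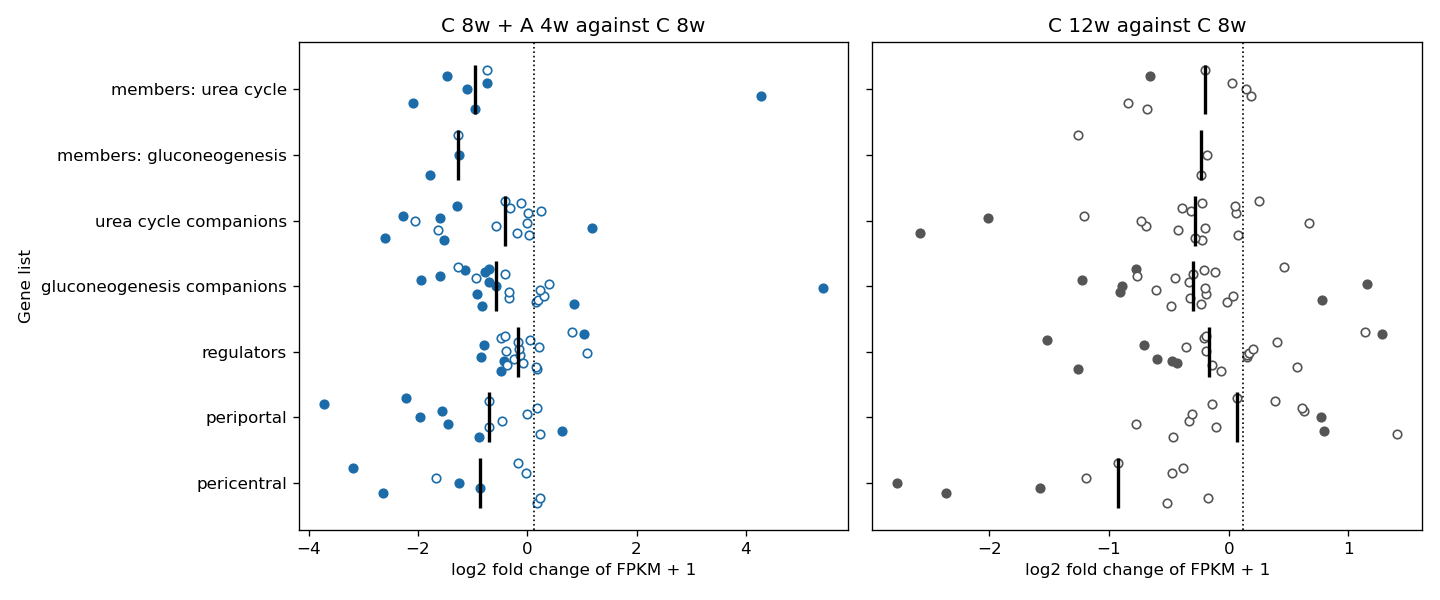
Log2 fold change of FPKM + 1 of each gene by list in the SALI group against C 8w (left) and C 12w against C 8w (right), filled where adjusted p is under 0.05, with list medians as black bars and the median of all genes as a dotted line. On the left all list medians lie below the dotted line at 0.12, and on the right the pericentral genes lie lowest, at a median of -0.92.

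Markers of cell types are given beside these falls. The 7 hepatocyte markers tested had a median log2 fold change of -0.14 in the SALI group against C 8w. Of these, 1 rise and no fall was called, where 25.3% of all genes tested rose. By sign 3 were higher and 4 lower, and 3 had an unadjusted p under 0.05 (limma). Ttr (-0.77, adjusted p = 0.0526) and Ahsg (-0.99, adjusted p = 0.0903) lay below C 8w without overlap but did not pass. Alb did not pass the filter and was not tested. Cholangiocyte markers summed to 26.3 to 32.8 FPKM in the SALI group and 9.51 to 15.2 in C 8w. Macrophage markers summed to 104.7, 354.8 and 109.5 in the SALI group, highest in replicate 97, and to 142.2 to 169.6 in C 8w, and none of the 6 was called (limma, 0 also at an unadjusted p under 0.05). Endothelial markers fell for 3 of 5, where 14.1% of all genes tested fell. Their sum was 39.5 to 43.5 in C 8w and 16.8 to 28.3 in the SALI group. Stellate cell and fibroblast markers summed to 13.5 to 15.4 and 14.0 to 28.0, and lymphocyte markers to at most 4.21 in any sample. The part of these cells in the falls was not tested.

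The genes whose pattern over the 8 samples was nearest to that of Cps1, by the root mean square difference of their z-scores, were Hpx, Elovl2, Amy1, Hgfac and Hal. The difference was 0.0669 for Hpx, encoding the heme carrier hemopexin, and 0.217 for Hal, histidine ammonia-lyase. Hpx was 3082, 2621 and 2453 FPKM in C 8w, 970.8, 828.6 and 1200 in the SALI group, and 5701 and 1825 in C 12w. Nearest to Pck1 were Cyp2d26, Socs2, Zfyve21, Gpt and Agmat, with differences of 0.137 to 0.288. Gpt, an alanine aminotransferase, was 142.6, 126.7 and 132.3 FPKM in C 8w, 104.5, 85.2 and 79.2 in the SALI group, and 115.5 and 59.1 in C 12w, with replicate 96 highest within the SALI group as for Pck1.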

How the data were processed

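RNA sequencing values of 8 Fah-/- mice were grouped by their treatment labels (3 in C 8w, 3 in the SALI group, 2 in C 12w). The authors deposited FPKM in one table of 22504 Ensembl mouse genes, with 0 columns of other samples, and 22314 identifiers were paired with a symbol. The submitters' processing notes name Bowtie 0.12.2 and the build mm8. The quantifier, the annotation and the strand setting are not given in the sources used here. FPKM keeps no counts, so the absolute depth and counting error are unknown. From the steps of values under 0.1, depth differed by at most 6.44% from that of replicate 1 in C 8w and C 12w and by at most 2.40% from replicate 96 in the SALI group, and could not be compared between these series.

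Genes reaching an FPKM of 1 in 4 or more samples entered limma 3.58.1 (R 4.3.3, moderated with a mean-variance trend) as log2(FPKM + 1), in a single two-sided fit of 3 group means to all 8 samples with Benjamini-Hochberg adjustment. Fold changes on this scale understate changes of low genes. The test was checked on simulated data. The members and gene lists were chosen with earlier results of these data known, and were described by counts and medians without a test of the list. Genes named are the 10 members, up to 5 called genes without overlap per list and comparison by size, and the 5 most alike to Cps1 and to Pck1. Others were picked with their values in view: Pcx, Slc37a4, Fbp2, Fah, Got2-ps1, Mpc1-ps, Gm5424, Alb, Gapdh, Spp1, Sox9, Epcam, Krt7, Krt19, Ttr and Ahsg. Shared sequence is the percentage of 50-base windows of GENCODE M21 transcripts, on either strand, that occur in another gene (Python 3.11.15). Its build differs from mm8, so coordinates belong only to the sequences printed. Alternatives comprised the pseudocount 0.1, lower floors or no floor, 3 scalings, each sample left out, no trend, 2 groups alone, a log2 fold change of at least 1, genes with at most 2% shared windows, and a replicate block. Scaling to unshared genes, the sums of Ass1 and Gm5424, and crossed numbers were added after seeing the data.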

Additional observations from a re-analysis of the deposited data

How the results depend on the processing

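The counts of members called in the SALI group against C 8w (8) and against C 12w (6) stayed within 1.5 times under all alternatives, at 6 to 10 and at 4 to 8. Of 674 values of single members under 24 settings, 28 lost and 20 gained a call, and 20 changed direction, of which 3 are among the lost and 1 among the gained calls. The count in C 12w against C 8w (1) was 0 to 7 with 1 sample left out, and 0 with a minimum log2 fold change of 1. With 1 sample left out, the log2 fold change ranged from -0.71 to 0.16 for Arg1, from -1.27 to 0.20 for Slc25a15 and from -0.83 to 0.82 for Pck1 in the SALI group against C 12w, and, without a change of direction, from -1.90 to -0.59 for Cps1, 2.85 to 5.33 for Ass1, -2.32 to -0.19 for Asl and -1.42 to -0.72 for G6pc. In C 12w against C 8w it ranged from -0.51 to 0.80 for Cps1, -1.06 to 1.43 for Ass1, -1.90 to 0.23 for Asl, -0.12 to 0.18 for Nags, -0.94 to 0.54 for Slc25a15, -0.53 to 0.16 for G6pc, -0.75 to 0.29 for Fbp1, -1.12 to -0.25 for Arg1 and -2.09 to -0.43 for Pck1. In that comparison Nags was at -0.10 with median-ratio scaling and Fbp1 at 0.036 with quantile scaling, neither called. With Ass1 and Gm5424 in 1 row the log2 fold changes were -1.65, -1.38 and -0.27 in the SALI group against C 8w, against C 12w, and C 12w against C 8w, and -1.27, -1.004 and -0.27 weighted by length. The cause of the other changes was not tested.

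Replicate numbers 2 and 3 occur in C 8w as well as in C 12w and belong to different mice. The deviations of same-numbered samples had a correlation of -0.19 over 10244 genes, so the numbers do not pair them. With the number as a replicate block the count was 0 of 10 members and 252 of all genes, against 1962 without it, and with crossed numbers 0 members and 16 genes.

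Over the alternatives the calls in the SALI group against C 8w numbered 3 to 11 of the urea cycle companions (main 6), 4 to 14 of the gluconeogenesis companions (11), 1 to 10 of the regulators (5), 5 to 9 of the periportal (7) and 2 to 5 of the pericentral genes (4). Against C 12w, in the same order, they numbered 4 to 10 (8), 3 to 10 (7), 3 to 8 (5), 4 to 8 (5) and 1 to 4 (2), and in C 12w against C 8w 0 to 9 (2), 0 to 10 (6), 0 to 7 (7), 0 to 6 (2) and 0 to 5 (3). Of all genes, 4034 were called in the SALI group against C 8w, 2469 without C 8w replicate 1, 1128 at a log2 fold change of at least 1 and 2194 among the 6318 genes with at most 2% shared windows. Against C 12w 3356 were called, and 1996 with 2 groups alone, 1177 and 1767. In C 12w against C 8w, 1962 were called, 677 to 3702 with 1 sample left out, 533 and 1241. Without a count of reads, depth limits could not be set.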

Other observations

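Within C 8w + A 4w, all 9 pericentral genes that passed the filter were highest in replicate 97, as were 49.5% of all genes tested. Between the other replicates they were split, with 4 higher in replicate 96 and 5 in replicate 98, and the pericentral sum was 1863, 2961 and 2673 FPKM in replicates 96, 97 and 98. The urea cycle members had no such sample, with 2, 2 and 3 of the 7 highest in replicates 96, 97 and 98. The macrophage marker sum was highest in replicate 97 as well (354.8 FPKM against 104.7 and 109.5). In C 12w, 16 of 17 urea cycle companions and 7 of 9 pericentral genes were higher in replicate 2 than in replicate 3, against 39.2% of all genes tested, but 5 of 20 regulators were.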
